A study of Mus musculus with 6 samples.

Results

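The genes described here are 9 genes that write, maintain, read or remove methylation of cytosine in DNA, Uhrf1, Uhrf2, Dnmt1, Dnmt3a, Dnmt3b, Tet1, Tet2, Tet3 and Mbd2. They were selected by symbol, and the list was drawn up from the pathway with the treated against vehicle results of these cultures already known, Uhrf1 being among the clearly lower genes. The change between treated and vehicle cultures is therefore given as a description for all 9, and the counts of calls among them, printed beside the share of all genes called, support nothing. All 9 were found among the 35976 genes of the count tables, and all 9 were among the 18906 genes that passed the filter on low counts.

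RNA was sequenced from cultured neurons of the dorsal root ganglia (DRG), the clusters of sensory neurons beside the spinal cord, after removal of ribosomal RNA. The ganglia came from the lumbar levels of adult wildtype C57BL/6 mice, males and females, and the dissociated cells were kept in medium with serum and growth factors. After 24 h on the dish, 3 cultures received vehicle and 3 received HC-HA/PTX3 at 15 µg/mL, each for 24 h. HC-HA/PTX3 is a complex of hyaluronan, heavy chains of inter-alpha-inhibitor and pentraxin 3, purified from human amniotic membrane, and the comparison asks whether prolonged exposure alters gene expression in these cells. The study calls these cultures biological replicates, but the sources used here do not say that the 3 of a group came from separate animals, so p-values measure the spread between these cultures. The vehicle libraries 1, 2 and 3 held 42516054, 42617496 and 54117547 counts in total, and the HC-HA/PTX3 libraries 37998071, 37434266 and 38420247. Levels are given in CPM, counts relative to the library total, after scaling by the trimmed mean of M-values (TMM). The level worth 3 counts, the most that a count of 0 allows, was 0.0804 CPM in HC-HA/PTX3 replicate 1 and lower elsewhere.

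Cytosines followed by guanine (CpG) carry most of the DNA methylation of mammalian cells. Dnmt3a and Dnmt3b set new marks, whereas Uhrf1 binds the hemimethylated sites left by replication and recruits Dnmt1 to copy the mark onto the new strand, which ties maintenance to S phase. Tet1, Tet2 and Tet3 oxidise methylcytosine as a first step of its removal, Mbd2 binds methylated CpG, and both the Dnmt and the Tet enzymes have been studied in DRG neurons after nerve injury.

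Of the 9 genes, 8 were matched in the RefSeq promoter table of build GRCm38.p6, with 13 windows of 300 bases, each running from 250 bases before to 50 bases after an annotated start. A promoter window is shown for Uhrf1 and for Dnmt1 because these partners act together in maintenance and both were lower after treatment. These are also shown because a window of each gene, and no other of the 13, held the letters searched for. These letters are the binding motif of the E2F family of cell cycle regulators. The search covered TTTCCCGC, TTTCGCGC, TTTGCCGC and TTTGGCGC on both strands, and capitals mark the matches. The Uhrf1 window lies on the plus strand at chr17:56304063-56304362 and the Dnmt1 window on the minus strand at chr9:20952574-20952873.
Uhrf1: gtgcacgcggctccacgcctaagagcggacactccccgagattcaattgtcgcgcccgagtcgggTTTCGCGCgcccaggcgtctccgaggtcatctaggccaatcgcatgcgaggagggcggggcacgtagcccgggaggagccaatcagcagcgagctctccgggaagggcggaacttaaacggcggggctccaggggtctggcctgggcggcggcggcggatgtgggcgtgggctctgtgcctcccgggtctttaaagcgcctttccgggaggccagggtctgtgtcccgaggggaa
Dnmt1: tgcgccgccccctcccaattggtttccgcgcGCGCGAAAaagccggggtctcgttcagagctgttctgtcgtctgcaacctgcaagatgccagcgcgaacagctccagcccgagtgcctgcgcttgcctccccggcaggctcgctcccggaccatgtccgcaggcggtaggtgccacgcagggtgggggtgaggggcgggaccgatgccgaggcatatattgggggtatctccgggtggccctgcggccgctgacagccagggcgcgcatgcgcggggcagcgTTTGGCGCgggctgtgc
In Uhrf1 the match, TTTCGCGC, began 185 bases before the start. In Dnmt1 the same letters were found on the opposite strand 219 bases before the start, and TTTGGCGC began 33 bases after it. Such a match was held by 744 of 32851 promoter windows (2.26%) and by 2 of the 13 windows of these genes. Every motif searched for contains a CpG, and the share among windows equally rich in CpG was not computed. No excess is therefore read from these numbers. The windows at the other annotated starts of Uhrf1 (12 CpG) and Dnmt1 (12 and 2 CpG) held no match. Both windows shown lie downstream of these other starts, so within the gene as transcribed from them. They are the CpG-richest windows of their genes, and which start was used in these cultures was not examined. Both windows shown contained 33 CpG, at least as many as 92.3% of all windows, whose median was 7. The CpG-richest windows of the others contained 57 CpG in Tet2, 47 in Dnmt3a, 30 in Dnmt3b, 28 in Uhrf2, 22 in Tet3 and 17 in Tet1. A match is a description of the letters and not evidence of binding, and no match says only that these letters were not in the window.

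Uhrf1 (chromosome 17 of mm10, 56303321 to 56323486), the reader of hemimethylated DNA, was measured at 73.5, 69.7 and 41.5 CPM in vehicle replicates 1, 2 and 3. After HC-HA/PTX3 it was at 24.2, 35.6 and 4.68 CPM in replicates 1, 2 and 3. Every treated culture lay below every vehicle culture, and replicate 3 was the lowest of both groups. Means with SD were 61.5 ± 17.5 CPM for vehicle and 21.5 ± 15.6 CPM for treated cultures (n = 3 each). In the fit that compared same-numbered cultures, the log2 fold change was -1.80 with a standard error of 0.297, or 3.48 times lower. Treated replicate 1 held 33.0% of the level of vehicle replicate 1 (95% interval 30.6 to 35.5), treated replicate 2 held 51.1% (47.9 to 54.5) and treated replicate 3 held 11.3% (9.67 to 13.1). These exact intervals cover counting error only, not the spread between cultures. The lowest value rested on 184 counts and the highest on 3024. The log2 fold change was -1.28 when either culture numbered 3 was left out and -2.29 when either culture numbered 2 was left out.

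Dnmt1 (chromosome 9, 20907209 to 20959888), the maintenance methyltransferase, was at 140.6, 144 and 119 CPM in vehicle replicates 1, 2 and 3. With HC-HA/PTX3 it was at 97.8, 118 and 91.2 CPM. The groups did not overlap, although treated replicate 2 came close to vehicle replicate 3. Means with SD were 134 ± 13.7 and 103 ± 14.2 CPM (n = 3 each), and the log2 fold change was -0.39 (standard error 0.0672). Treated cultures held 69.6%, 82.3% and 76.9% of their same-numbered vehicle cultures, a narrower range than that of Uhrf1. Uhrf2 (chromosome 19, 30030513 to 30093722), the paralogue of Uhrf1, was at 53.8, 54.5 and 68.1 CPM with vehicle, and at 55.5, 53.7 and 72.3 CPM with HC-HA/PTX3 in the same order. Its groups overlapped almost entirely, and in both of them replicate 3 was the highest. The log2 fold change was 0.04 (standard error 0.0680).

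Of the enzymes that set new marks, Dnmt3b (chromosome 2, 153649450 to 153687730) had few counts. It was measured at 2.03, 2.19 and 1.80 CPM (82, 95 and 99 counts) in vehicle replicates 1, 2 and 3. The treated cultures held 1.23, 1.38 and 0.560 CPM (46, 52 and 22 counts). All treated cultures were below all vehicle cultures, and treated replicate 3 was the lowest, as for Uhrf1. The log2 fold change was -0.97 (standard error 0.246), and the treated cultures held 60.8%, 63.0% and 31.1% of their vehicle pairs. The counting intervals of these shares were wide, from 41.4 to 88.2 in pair 1, 44.0 to 89.3 in pair 2 and 18.7 to 49.8 in pair 3. Dnmt3a (chromosome 12, 3806007 to 3914443), the better measured of the pair, was at 64.2, 61.4 and 61.4 CPM with vehicle, and at 57.8, 60.7 and 52.5 CPM with HC-HA/PTX3. The highest treated culture was just below the lowest vehicle culture, and the log2 fold change was -0.13 (standard error 0.0722). Dnmt3a shares 133 exonic bases with an antisense gene, and as the strand setting of the counting is not given in the sources used here, reads there could have been split.

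Among the Tet dioxygenases, Tet1 (chromosome 10, 62804570 to 62908996) was at 13.1, 11.8 and 10.4 CPM in vehicle replicates 1, 2 and 3 and at 9.78, 7.72 and 6.97 CPM with HC-HA/PTX3. The groups did not overlap, and the treated share of vehicle was alike in the pairs, at 74.7%, 65.3% and 66.8%. The log2 fold change was -0.54 (standard error 0.112). Tet2 (chromosome 3, 133463679 to 133545139) was at 80.9, 85.2 and 66.5 CPM with vehicle, and at 74.2, 74.5 and 59.5 CPM with HC-HA/PTX3. Each treated culture was below its own pair, but the groups overlapped because replicate 3 was low in both, and the log2 fold change was -0.16 (standard error 0.0639). Tet2 shares 43 exonic bases with a gene on the opposite strand. Tet3 (chromosome 6, 83362373 to 83459084) was at 119.5, 119 and 138 CPM with vehicle, and at 134.5, 120.0 and 154 CPM with HC-HA/PTX3. It was the only gene of the 9 that was higher in every pair, by log2 differences of 0.17, 0.01 and 0.16, and the groups overlapped. The fitted log2 fold change was 0.11 (standard error 0.0633).

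Mbd2 (chromosome 18, 70568189 to 70626131), a reader of methylated CpG that recruits a histone deacetylase complex, was at 80.9, 70.1 and 66.1 CPM in vehicle replicates 1, 2 and 3. It was at 67.3, 63.2 and 55.8 CPM with HC-HA/PTX3. Each treated culture was below its pair, treated replicate 1 was above vehicle replicate 3, and the log2 fold change was -0.22 (standard error 0.0667).

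**Figure D1:**
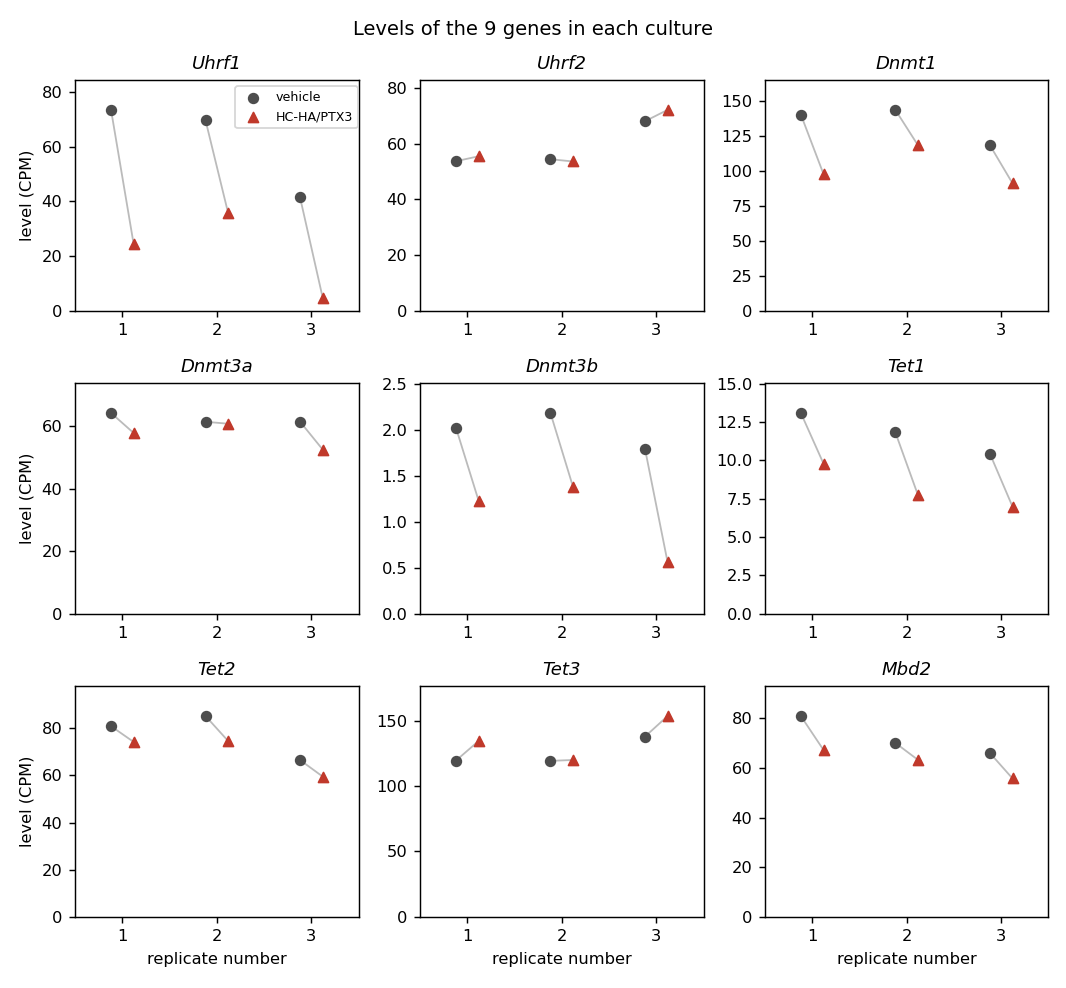
Levels of the 9 genes in CPM (vertical axes, each from 0) in the vehicle (circles) and HC-HA/PTX3 (triangles) cultures, by replicate number, with a line joining same-numbered cultures. Uhrf1 was lower in every treated culture, down to 4.68 CPM in replicate 3, while Uhrf2 and Tet3 lay close to or above their vehicle pairs.

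**Figure D2:**
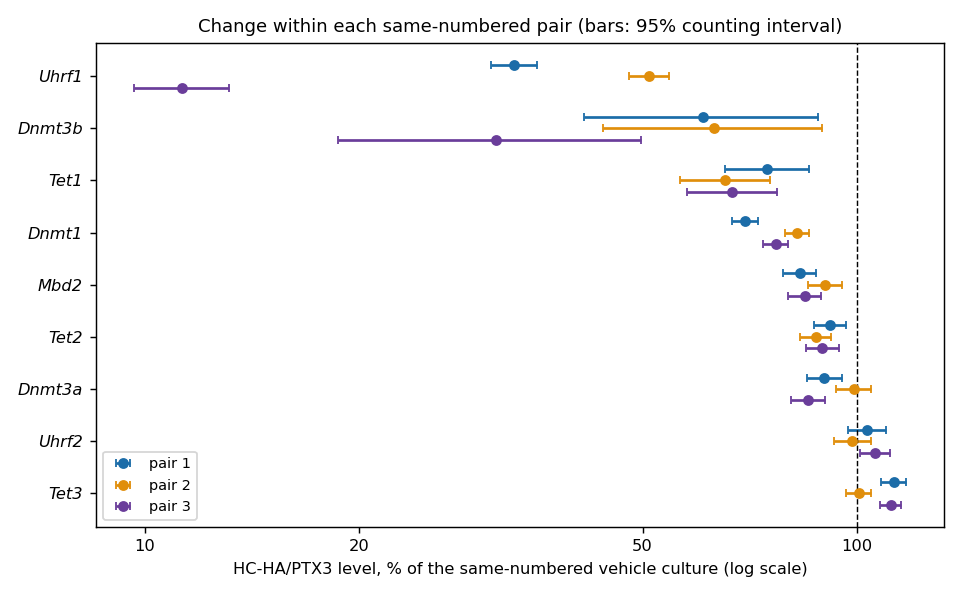
Level in each treated culture as a percentage of the same-numbered vehicle culture, on a log axis, for the 9 genes, with bars for the 95% counting interval and a dashed line at equal levels. Uhrf1 ranged from 11.3% to 51.1%, whereas Dnmt1 stayed between 69.6% and 82.3%.

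A gene was called when the Benjamini-Hochberg adjusted p-value of edgeR's quasi-likelihood test, with the replicate number as a block, was under 0.05 and the absolute log2 fold change was over 0.5. By this rule 3 of the 9 genes were called, all lower (Uhrf1, Dnmt3b and Tet1), where 1575 of 18906 genes (8.33%) were called in either direction, 960 (5.08%) lower and 615 (3.25%) higher. The vehicle and treated levels did not overlap, with the treated ones lower, in 5 of the 9, and in 8.33% of all genes tested. The treated culture was the lower of every pair in 7 of the 9, and in 27.5% of all genes tested. Since this contrast was in view when the genes were chosen, nothing is read from these counts, nor from those of the 9 without the replicate block or with a culture left out. Without the replicate block, edgeR called 0 of the 9, with 4 at an unadjusted p under 0.05, and DESeq2 and limma-voom without the block also called 0. The log2 fold changes of Uhrf1, Dnmt3b and Tet1 were then -1.52, -0.92 and -0.53, with standard errors of 0.636, 0.350 and 0.181. The call of Dnmt3b was lost when vehicle or treated replicate 1 was left out (-1.11 in each case), and likewise for vehicle or treated replicate 3 (-0.69 in each case).

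The difference between replicate numbers was not used to choose the genes, and it was tested. In the same fit, edgeR's test of the replicate number called 5 of the 9 at an adjusted p-value under 0.05, and 6021 of all 18906 genes (31.8%). For Uhrf1 the adjusted p-value was 0.0159 by edgeR, with replicate 3 at a log2 difference of -1.36 from replicate 1, lower in both groups. The fit gives a single difference for both groups, but their gaps were unlike. Replicate 3 against replicate 1 was 41.5 against 73.5 CPM with vehicle and 4.68 against 24.2 CPM with HC-HA/PTX3. Treated replicate 3, with the largest change from its vehicle pair, thus also enters this difference. Dnmt1 (edgeR adjusted p = 0.0325) and Tet2 (edgeR adjusted p = 0.0152) were also lowest in replicate 3 of both groups, with log2 differences of -0.17 and -0.30 from replicate 1. Uhrf2 (edgeR adjusted p = 0.00929) and Tet3 (edgeR adjusted p = 0.0423) went the other way and were highest in replicate 3 of both groups, by 0.36 and 0.20. The 4 genes that did not pass were Dnmt3a, Dnmt3b, Tet1 and Mbd2, with edgeR adjusted p-values of 0.553, 0.217, 0.101 and 0.0591. The replicate number thus separated the Uhrf paralogues in direction, since Uhrf1 was lowest and Uhrf2 highest in the cultures numbered 3.

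Levels of the 9 genes were compared with each other per kilobase of annotated exon. In the vehicle cultures Mbd2 was the most abundant at 22.5 ± 2.39 CPM per kilobase, followed by Dnmt1 at 18.2 ± 1.86 and Uhrf1 at 14.4 ± 4.11 (SD, n = 3 each). Tet3 followed at 7.52 ± 0.637, Uhrf2 at 6.85 ± 0.944, Tet2 at 4.59 ± 0.579 and Dnmt3a at 3.75 ± 0.0972 CPM per kilobase (SD, n = 3 each). Tet1 at 0.762 ± 0.0857 and Dnmt3b at 0.393 ± 0.0383 CPM per kilobase were the least abundant (SD, n = 3 each). Neighbours in this order whose vehicle cultures overlapped were Dnmt1 and Uhrf1, and Tet3 and Uhrf2. Per kilobase, the ratio of Uhrf1 to Uhrf2 was 2.76, 2.58 and 1.23 in vehicle replicates 1, 2 and 3, and 0.880, 1.34 and 0.131 in the treated ones. Uhrf1 thus exceeded its paralogue in all vehicle cultures and fell below it in treated replicates 1 and 3. The ratio of Uhrf1 to Dnmt1 was 0.906, 0.838 and 0.605 with vehicle, and 0.429, 0.521 and 0.0889 with HC-HA/PTX3. Dnmt3a exceeded Dnmt3b by 9.71, 8.60 and 10.5 times with vehicle and by 14.4, 13.5 and 28.8 times with HC-HA/PTX3.

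The other genes of the pathway were described in 7 lists of 71 genes, of which 68 were tested. Mat1a and Bhmt did not pass the filter on low counts, and Dnmt3c was not analysed here. Of the 68, 16 were called lower and 2 higher, where 5.08% of all genes tested were called lower and 3.25% higher, the background for every list below. The most abundant gene of a list, or the one said to lead it, is that with the highest CPM, which takes no account of transcript length. Without the replicate block, edgeR called 0 of the 68, with 20 at an unadjusted p under 0.05, DESeq2 called 4 and limma-voom 0. Of 10 partners of Uhrf1 and Dnmt1 in maintenance, 8 were called lower (5.08% of all genes), 0 higher (3.25%) and 2 were not called. The median log2 fold change of this list was -0.63, beside 0.00 over all genes tested. As maintenance is tied to S phase, these values are not separate from those of the S-phase genes given below. Pclaf, the PCNA-associated factor that recruits Dnmt1 when ubiquitinated by Uhrf1, was at 22.8, 23.2 and 14.0 CPM in vehicle replicates 1, 2 and 3 and at 7.04, 11.5 and 1.81 CPM in the treated ones, a log2 fold change of -1.77. As a share of vehicle it held 30.9%, 49.4% and 12.9%, close to the shares of Uhrf1 in each pair. Shares near those of Uhrf1 were not confined to maintenance partners. The cell cycle gene Mki67, which is not in this list, held 32.0%, 50.2% and 16.2% in pairs 1, 2 and 3. The remodelling ATPase Hells and its activators Cdca7 and Cdca7l had log2 fold changes of -0.90, -0.88 and -1.63. The DNA ligase Lig1, whose modified form is bound by Uhrf1, the replication clamp Pcna, the deacetylase Hdac1 and the imprint-protecting zinc finger protein Zfp57 had log2 fold changes of -0.66, -0.54, -0.51 and -0.60. The genes not called were the deubiquitinase Usp7, the most abundant of the list (0.03), and Trim28 (-0.48), named after its value was seen. Pcna and Hdac1 have near-identical processed copies in the genome, so their counts are uncertain where reads could have been split. The calls of Pcna and Hdac1 were lost when either culture numbered 3 was left out, that of Cdca7 without treated replicate 3, and that of Zfp57 when either culture numbered 1 was left out. Hdac1, close to the fold limit, was also not called under upper-quartile or library-size scaling or after ComBat-seq. Trim28 was called when either culture numbered 2 was left out or when all genes with a count were tested.

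In the list of partners of the de novo enzymes, the only gene called was Trdmt1 (once called Dnmt2), which is related to the Dnmt genes by sequence but encodes a tRNA methyltransferase and not a partner of Dnmt3a or Dnmt3b. It was lower at -0.96, from 8.18 ± 1.14 to 4.26 ± 1.07 CPM (SD, n = 3 each). The other 3 of 4 were not called, among them Nsd1, the most abundant (-0.02), and Dnmt3l (0.55), which was called after ComBat-seq. Of 9 other readers of methylated CpG, edgeR called 0, with 3 at an unadjusted p under 0.05, and DESeq2 and limma-voom with the block also called 0. Their median was 0.00, and the most abundant was Zbtb4 (0.01). Of 9 genes of histone H3K9 methylation, a mark that Uhrf1 also reads, edgeR called 0, and DESeq2 and limma-voom called 0. By edgeR 5 were at an unadjusted p under 0.05. An edgeR adjusted p under 0.05 was reached by 3, whose log2 fold changes were within the limit of 0.5. The median of the 9 was -0.30, and the most abundant was the heterochromatin protein gene Cbx5 (-0.45). When either culture numbered 2 was left out, Cbx5 and, among the readers, Mbd4 were called lower.

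Of 8 partners of the Tet enzymes and suppliers of their cofactor, 1 was called lower, the CXXC protein gene Cxxc5 (-0.56), and 7 were not called, including the most abundant, Ogt (-0.04). Base excision repair, which removes oxidised methylcytosine, had 3 of 14 genes called lower, 2 higher and 9 not called, with a median of 0.05. The lower ones were the glycosylase genes Ung (-1.19) and Neil3 (-1.57) and the scaffold gene Xrcc1 (-0.50). The other glycosylase genes of this list, named after their values were seen, were not called. These were Tdg (-0.04), Smug1 (-0.04), Neil1 (-0.21) and Neil2 (0.19). The genes called higher were Gadd45a and Gadd45b, stress-induced genes linked to repair and demethylation. Gadd45a, the most abundant of the list, was at 103, 76.4 and 79.9 CPM in vehicle replicates 1, 2 and 3 and at 147, 118 and 119 CPM in the treated ones (log2 fold change 0.57). All treated cultures were above all vehicle cultures for Gadd45a, whereas for Gadd45b (0.54) the groups overlapped. Calls lost when either culture numbered 3 was left out were those of Cxxc5 and Xrcc1, and Gadd45b was not called by limma-voom or when either culture numbered 1 was left out. Gadd45g was called when either culture numbered 1 was left out. Xrcc1 was also lost under upper-quartile or library-size scaling and after ComBat-seq. In the methyl donor cycle, 3 of 14 tested genes were called lower and 11 were not called, with a median of -0.01. Among the lower ones were Shmt1 (-1.32), a serine hydroxymethyltransferase gene, and Tyms (-0.78), the thymidylate synthase gene, while the most abundant, Ahcyl1, was at -0.02. Nnmt (-0.61) was called only after ComBat-seq.

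**Figure D3:**
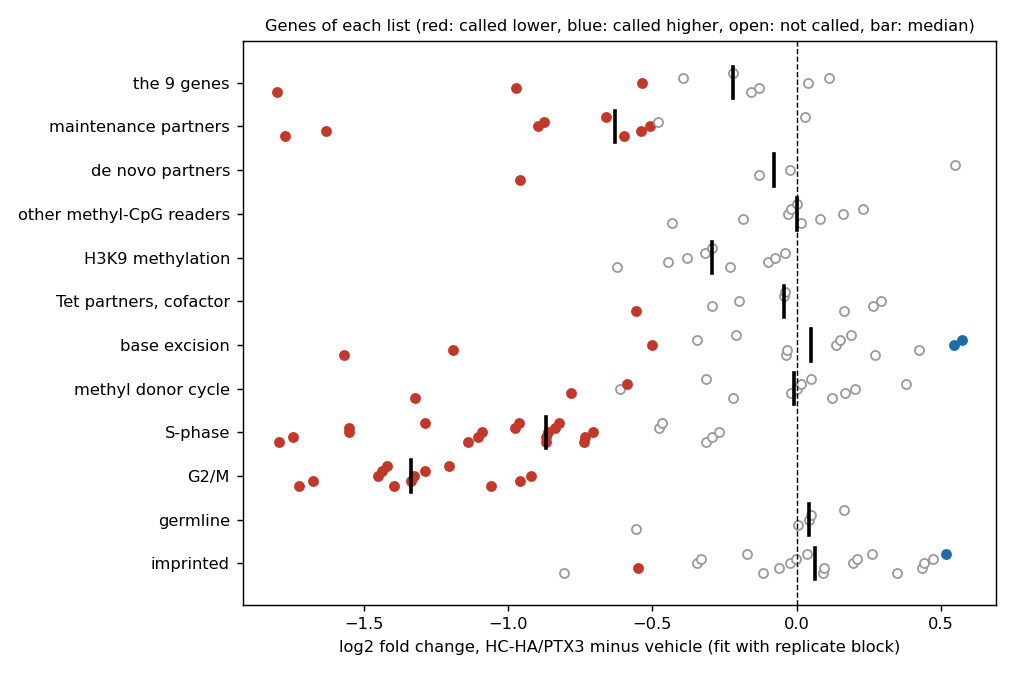
Log2 fold change of every tested gene among the 9 genes and in the pathway, cell cycle, germline and imprinted lists (1 point a gene), without the cell type markers, with filled points for genes called lower (red) or higher (blue), open points for genes not called and a bar at the median of each list. Of the lists plotted, the maintenance partners (-0.63), S-phase (-0.87) and G2/M (-1.34) genes had the lowest medians, and the other methyl-CpG readers were centred at 0.00.

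Uhrf1 is a gene of cycling cells, and the cell cycle lists are given beside it. Of 23 S-phase genes, 18 were called lower (5.08% of all genes) and 0 higher (3.25%), with a median log2 fold change of -0.87 (0.00 over all genes), and all 23 were lower in every pair (27.5% of all genes). The largest changes were those of E2f8 (-1.79), Tk1 (-1.75) and Mcm5 (-1.55), and the most abundant gene was Rrm1 (-0.73). The 5 not called, named after their values were seen, were Mcm7, Mcm10, Cdt1, Gins1 and E2f1. Without the replicate block edgeR called 0 of the 23, with 17 at an unadjusted p under 0.05, while DESeq2 called 8 and limma-voom 0. With the block, Gins2 and E2f2 were not called when either culture numbered 1 was left out, nor Gins2 without treated replicate 3, whereas Mcm7 was called when either culture numbered 2 was left out and Mcm10 when either numbered 3 was. All 13 G2/M genes were called lower (5.08% of all genes), with a median of -1.34, among them Mki67 (-1.72), the most abundant, Top2a (-1.68) and Kif11 (-1.45). Without the block edgeR called 0 of the 13, with 2 at an unadjusted p under 0.05, and DESeq2 and limma-voom called 0. The summed G2/M level was 853, 597 and 286 CPM in vehicle replicates 1, 2 and 3 and 303, 314 and 59.8 CPM in the treated ones. In the treated cultures this left 35.5%, 52.5% and 20.9% of vehicle, and for the S-phase genes 50.9%, 66.6% and 45.7%. The order of the pairs was the same as for Uhrf1, with pair 3 lowest and pair 2 highest. Whether fewer cycling cells or less of these RNAs per cell were present cannot be told apart in bulk RNA.

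The labels name the cells as DRG neurons, and the neuronal markers were high, led by Tubb3 at 1283, 1184 and 1177 CPM in vehicle replicates 1, 2 and 3. The 8 neuron markers summed to 6257, 5380 and 6129 CPM with vehicle and to 6520, 5836 and 6682 CPM with HC-HA/PTX3, which was 104%, 108% and 109% of vehicle. None of the 8 was called by edgeR, with 3 at an unadjusted p under 0.05, and DESeq2 and limma-voom called 0. Markers of other cells were also present, and no marker of any list was at 0 in every culture. The 6 fibroblast markers, led by Col3a1, summed to 2117, 2130 and 910 CPM with vehicle and to 1145, 1389 and 304 CPM with HC-HA/PTX3. This was 54.1%, 65.2% and 33.3% of vehicle, with pair 3 lowest and pair 2 highest. Of these markers 3 of 6 were called lower (5.08% of all genes), the collagen genes Col1a1 (-1.62), Col1a2 (-1.11) and Col3a1 (-0.96), and 3 were not called. These were Dcn (-0.09), Lum (-0.31) and Pdgfra (-0.25), so the summed change was mainly that of the collagen genes. Without the block edgeR called 0 of the 6, with 1 at an unadjusted p under 0.05, and DESeq2 and limma-voom called 0. The part of the fibroblast markers and of cell cycling in the change of Uhrf1 was not tested.

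Satellite glia markers differed mainly between replicate numbers. The 7 markers, led by Apoe and beginning with Fabp7, summed to 2154, 1246 and 514 CPM in vehicle replicates 1, 2 and 3 and to 2047, 1281 and 509 CPM in the treated ones. The treated cultures thus held 95.1%, 103% and 98.9% of their vehicle pairs, and 0 of 7 were called by edgeR between the treatments, with 4 at an unadjusted p under 0.05, and 0 by DESeq2 or limma-voom. All 7 passed edgeR's test of the replicate number, as did 31.8% of all genes tested. The cultures numbered 3, in which Uhrf1, Dnmt1 and Tet2 were lowest and Uhrf2 and Tet3 highest, therefore also held the least satellite glia marker RNA. In both groups they also had the lowest sums of the G2/M, S-phase, fibroblast, myelinating Schwann cell and mural cell lists. In that order, 13 of 13, 18 of 23, 5 of 6, 4 of 6 and 4 of 5 genes passed the same test. Of the neuron markers 6 of 8 passed, but their sum was lowest in replicate 2. Of the endothelial and macrophage markers, 2 of 6 and 2 of 7 passed. The part of these lists in the differences between replicate numbers was not tested.

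The 6 markers of myelinating Schwann cells, led by Pmp22, summed to 87.6%, 88.6% and 93.4% of vehicle, and Egr2 (-0.42) was called when either culture numbered 2 was left out. Mural cell markers, 5 in number and led by Pdgfrb with Rgs5 listed first, had 1 called lower, Acta2 (-1.02), which DESeq2 did not call, and summed to 99.8%, 95.8% and 66.2% of vehicle. Of 7 macrophage markers, led by Cd68 with Aif1 listed first, 1 was called lower, C1qa (-0.74), which limma-voom did not call and which was lost after ComBat-seq and when any culture numbered 1 or 3 was left out, and their summed level, 35.8 to 56.7 CPM over all cultures, was 86.8%, 97.5% and 76.4% of vehicle. Adgre1 (-0.64) was called when either culture numbered 2 was left out, when all genes with a count were tested and after ComBat-seq. Of 6 endothelial markers, led by Cdh5 with Cldn5 listed first, edgeR called 0, with 0 at an unadjusted p under 0.05, and DESeq2 and limma-voom called 0. Their sums were 101%, 113% and 89.9% of vehicle. Macrophage and endothelial markers thus also had pair 3 lowest and pair 2 highest, with smaller differences from vehicle than the summed cell cycle genes and fibroblast markers.

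**Figure D4:**
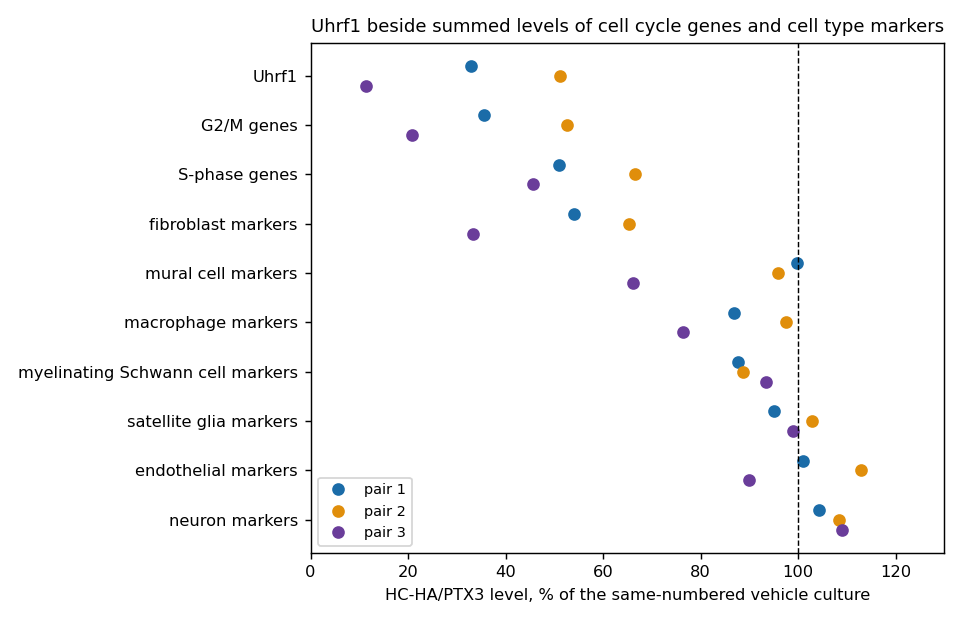
Level in the treated culture as a percentage of the same-numbered vehicle culture for Uhrf1 and for the summed CPM of each cell cycle and cell type marker list, with 1 point for each pair and a dashed line at equal levels. Uhrf1 (11.3% to 51.1%), the G2/M genes (20.9% to 52.5%) and the fibroblast markers (33.3% to 65.2%) had pair 3 lowest and pair 2 highest, as did the S-phase genes and the macrophage and endothelial markers, and neuron markers were at 104% to 109%.

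Over the 6 cultures, the genes most like Uhrf1 in log2 CPM among 13575 genes with a mean of at least 1 were Dtl, Ticrr, Lrrc40, Asf1b and Pex19, with Pearson correlations of 0.9996, 0.998, 0.998, 0.998 and 0.997. Dtl, which targets replication licensing factors for degradation, was at 16.1, 15.5 and 10.3 CPM with vehicle, and at 6.08, 8.59 and 1.58 CPM with HC-HA/PTX3. Lrrc40 followed the same order over a much narrower range, from 20.7 CPM down to 17.2 CPM, as a correlation takes no account of the size of a change. The genes most like Dnmt1 were Dock2, Gcfc2, Asb7, Rfc1 and Abr, with correlations of 0.999, 0.997, 0.997, 0.995 and 0.994. These values describe 6 cultures of 2 groups that share the treatment and the replicate number, and no test was made. Among the 9 genes themselves, Uhrf1 was most like Dnmt3b (0.990) and Dnmt3a (0.973), and ran opposite to Tet3 (-0.88) and Uhrf2 (-0.71).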

How the data were processed

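RNA was measured in 6 cultures, and groups and replicate numbers came from the sample labels. The deposited values are raw counts per gene: the authors aligned ribosomal RNA-depleted paired reads to mm10 (HISAT2 in the methods, STAR in the file headers), removed ribosomal reads and counted with featureCounts. In R 4.3.3, genes passing filterByExpr (18906 of 35976) were scaled by TMM and fitted in edgeR 4.0.16 (glmQLFit, glmQLFTest, Benjamini-Hochberg) on replicate number and treatment, called at adjusted p under 0.05 and absolute log2 fold change over 0.5. The standard error is the log2 fold change divided by the square root of its F statistic. The methods use a batch term without listing batches. The numbers were taken as pairs because deviations from group means correlated across genes at 0.607, 0.509 and 0.757 in same-numbered cultures and at -0.591 to 0.134 in others (limit 0.1). No libraries were duplicates (chi-square per degree of freedom 31.4 to 108). Exon lengths and positions came from GENCODE M21. Pair intervals are exact binomial intervals of the counts. Alternatives were no block, ComBat-seq (sva 3.50.0) with limma 3.58.1, limma-voom, DESeq2 1.42.0, other scalings and filters, and cultures left out. The test was tried on simulated data. Named genes were the 9, called and most abundant pathway genes, the 3 largest calls of the cell cycle, germline and imprinted lists, the most abundant and first marker of each cell type, and 5 likeness genes; some of these are not reported here. Genes and lists were chosen with earlier results of these data known.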

Additional observations from a re-analysis of the deposited data

How the results depend on the processing

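The direction of all 9 genes was the same under every alternative run, and Uhrf1 and Tet1 were called lower in each that kept the replicate block. Tet1 was close to the fold limit of 0.5. Its log2 fold change was -0.538 in the main fit, -0.509 with upper-quartile scaling and -0.501 when either culture numbered 2 was left out. Without the replicate block, edgeR called 2 genes in all (2128 at an unadjusted p under 0.05), DESeq2 called 336 and limma-voom 2, with 0 of the 9 genes and 0 of 68 pathway genes (20 at an unadjusted p under 0.05) called by edgeR. Leaving out 1 culture, whose pair then informs no difference, gave 999 to 2010 genes called (999 without HC-HA/PTX3 replicate 1, 1012 without vehicle replicate 1), 2 to 3 of the 9 genes, with Dnmt3b lost, and 13 to 21 pathway genes. Chosen after seeing the data, leaving out both cultures numbered 1, 2 or 3 gave 1002, 2014 and 1346. Calls numbered 1236 with DESeq2 (70.2% lower) and 2263 after ComBat-seq (51.1% lower), against 1575 (61.0% lower). Other scalings, filters and limma-voom gave 1536 to 2006. The causes were not tested. Of the 9 genes Dnmt3b had the fewest counts, 22 to 99 a culture.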

Other observations

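Genes whose silencing or parental expression depends on DNA methylation were listed to be read beside Uhrf1. Of 16 germline genes that promoter methylation keeps silent in somatic cells, 5 passed the filter on low counts and 11 did not. The 16 genes summed to 5.86, 5.99 and 7.69 CPM in vehicle replicates 1, 2 and 3 and to 5.73, 5.49 and 8.65 CPM with HC-HA/PTX3. The highest in CPM was Piwil2, with means of 3.34 ± 0.764 CPM for vehicle and 3.52 ± 1.44 CPM for treated cultures (SD, n = 3 each), and Asz1 had no count in any culture. With the replicate block edgeR called 0 of the 5, with 0 at an unadjusted p under 0.05, and DESeq2 and limma-voom called 0.

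Of 21 imprinted genes, 20 were tested, with a median log2 fold change of 0.06. The retrotransposon-derived Peg10 was called lower (-0.55), at 74.8, 49.0 and 59.0 CPM in vehicle replicates 1, 2 and 3 and at 40.0, 39.9 and 43.2 CPM with HC-HA/PTX3. Zrsr1 was called higher (0.52), from 49.2 ± 7.29 to 70.3 ± 9.16 CPM (SD, n = 3 each), and the groups did not overlap for either gene. Peg10 was not called when either culture numbered 1 was left out, and Zrsr1 was not called when any culture numbered 2 or 3 was left out or when all genes with a count were tested. Calls were gained for Dlk1, Kcnq1ot1 and Zim1 when either culture numbered 2 was left out, and for H19 when either numbered 3 was. Without the replicate block edgeR called 0 of the 20, with 5 at an unadjusted p under 0.05, and DESeq2 and limma-voom called 0. The highest in CPM, Gnas, was at -0.02. DNA methylation itself was not measured in these cultures.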
